A study of Mus musculus with 8 samples.

Results

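The genes described here were 44 mouse type I interferon stimulated genes, chosen by name as genes that cells switch on after exposure to interferon alpha or beta. All 44 symbols were found among the 55401 gene records of the deposited count table, and all 44 were among the 27573 records with enough counts to be tested. The table holds RNA-seq counts from haematopoietic stem cells (HSCs), the bone marrow cells from which all blood lineages derive, in 4 libraries of each of 2 groups. In the Nynrin CKO group the mice carried Nynrin fl/fl together with Tie2-Cre. The control group, called wild type in the labels, carried Nynrin fl/fl without Cre, so that the floxed alleles were shared by both groups and Cre was present in one of them. All mice were C57BL/6 and 8 weeks old, and about 3000 HSCs were sorted by flow cytometry from bone marrow for each preparation. Tie2 drives Cre in endothelial cells as well as throughout the blood system, so the deletion is not restricted to HSCs. The sources used here do not give the surface markers of the sort. Nothing in the labels says whether the 4 libraries of a group came from separate mice, and if they did not, the p-values below reflect technical spread alone.

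Interferon alpha and beta bind a shared receptor made of the IFNAR1 and IFNAR2 chains, whose kinases TYK2 and JAK1 phosphorylate transcription factors such as STAT2. With IRF9 these form the complex ISGF3, which binds interferon-stimulated response elements in the promoters of the stimulated genes and raises the transcription of antiviral proteins, of RNA sensors and of more of the pathway's own factors. In HSCs, acute interferon exposure is known to bring quiescent cells into cycle, and chronic exposure is known to impair their function. Nynrin encodes a protein with an NYN ribonuclease-like domain and a region derived from a retroviral integrase.

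Library totals ran from 36942835 to 56437299 counts. Levels below are CPM (counts per 1000000 counts of the library) scaled with TMM factors, which correct the totals for a few very abundant genes. Nynrin itself, the targeted gene, was at 41.3, 47.5, 30.1 and 30.4 CPM in controls 1 to 4 and at 12.7, 12.3, 8.24 and 8.22 CPM in Nynrin CKO 1 to 4. It fell by 1.85 ± 0.22 (SE) on the log2 scale (edgeR quasi-likelihood test, Benjamini-Hochberg adjusted p = 0.0345), and every Nynrin CKO library lay below every control. The sources used here do not say which exons are floxed, so part of the counts may come from exons outside the deletion. All 14 HSC markers checked were detected in all 8 libraries, with Kit between 1305 and 2361 CPM and Hlf between 90.7 and 144 CPM. The libraries differed in a property that the labels do not name. Counts on 1766 genes of the Olfr and Vmn receptor families, which serve smell and pheromone sensing, came to 854 to 1601 CPM in controls 1 to 3 and Nynrin CKO 1 and 2, and to 134 to 213 CPM in control 4 and Nynrin CKO 3 and 4. Between 40240 and 44562 genes had counts in the first 5 of these libraries and between 28914 and 31344 in the other 3. Nynrin CKO 1 and 2 were closer to each other than any 2 controls were, as were Nynrin CKO 3 and 4, with biological coefficients of variation of 0.235 and 0.216 against at least 0.319 for pairs of controls. Xist was high in controls 3 and 4 (177719 and 224087 counts) and at 245 to 471 counts in the other 6 libraries.

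In the comparison of the 4 Nynrin CKO with the 4 control libraries, the estimates for all 44 interferon stimulated genes were above 0 and 3 of the 44 passed the test. The median log2 fold change of the 44 was 1.11, with a range of 0.10 to 3.37, against a median of -0.09 over all 27573 tested genes. The 3 that rose were Phf11b, Lgals3bp and Ifi35, against 2.22% of all tested genes called higher (611 genes), and none of the 44 was called lower, against 0.588% of all tested genes (162 genes). The split of the calls over all genes depended on the scaling: 79.0% of them were higher with TMM factors, 47.3% with upper-quartile factors, 37.1% with RLE size factors and 15.6% with total counts. At an unadjusted p under 0.05, 26 of the 44 were higher and none was lower by edgeR, against 13.2% of all tested genes higher and 18.9% in either direction. DESeq2 called 18 of the 44 higher, against 3.07% of the 51658 genes it was run on, and limma-voom 10, against 5.91% of the 27573 tested genes. Neither called any lower. The DESeq2 base includes genes with too few counts for the edgeR test, so its share is not on the same base as the others. In edgeR with RLE size factors or total counts none of the 44 was called, with 26 and 17 at an unadjusted p under 0.05. With the library set described above as a term 10 of the 44 were called higher, against 4.43% of all tested genes. With the Xist class as a term none was, with 6 higher at an unadjusted p under 0.05, against 10.8% of all tested genes, and a median of 0.93. No Nynrin CKO library was high in Xist, so the class is unbalanced over the groups. In bulk RNA, more RNA per cell and a larger share of cells holding that RNA cannot be told apart.

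**Figure D1:**
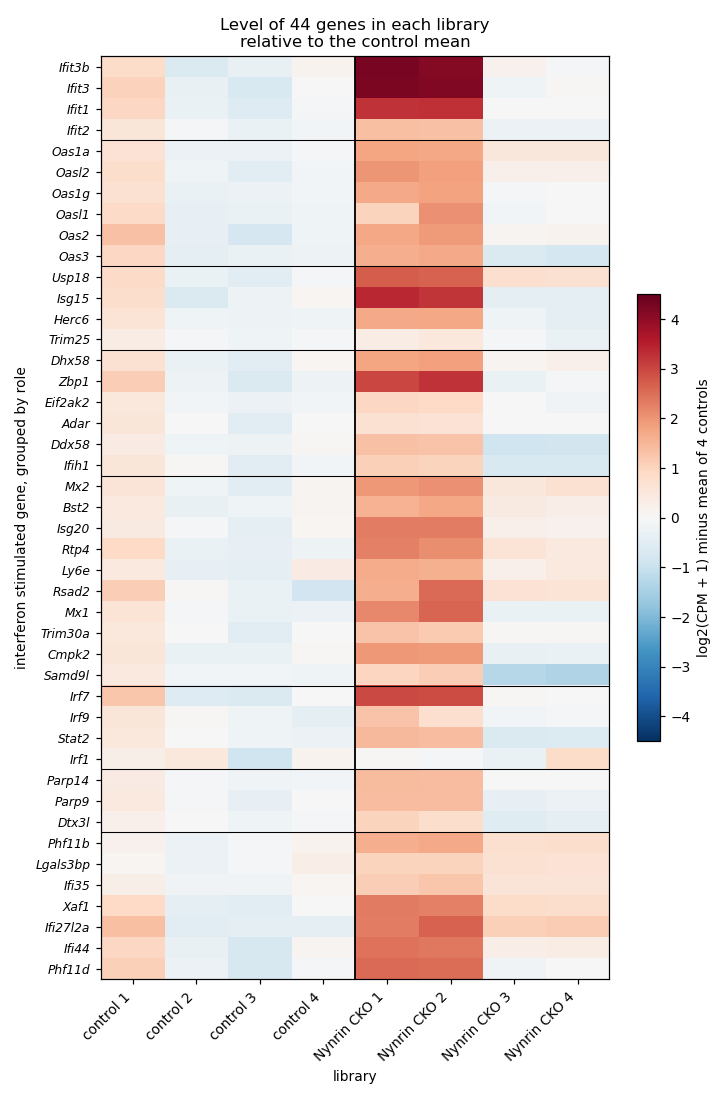
Level of each of the 44 genes (vertical axis, grouped by role and, within a role, ordered by p) in each of the 8 libraries (horizontal axis), as log2(CPM + 1) minus the mean of the 4 controls, with red above and blue below that mean. Nynrin CKO 1 and 2 have red cells for nearly all genes, while Nynrin CKO 3 and 4 are mixed and control 1 is the highest control for 42 of the 44.

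The 4 Nynrin CKO libraries did not move together. Nynrin CKO 1 was above every control for 42 of the 44 genes, against 26.7% of all tested genes, and Nynrin CKO 2 for 43 of 44, against 25.9%. Nynrin CKO 3 was above every control for 3 of the 44, against 27.1% of all tested genes, and Nynrin CKO 4 for 6, against 26.6%. Nynrin CKO 3 and 4 each lay below every control for 9 of the 44, against 30.7% and 31.3% of all tested genes. For 42 of the 44, Nynrin CKO 1 and 2 were both above the other 6 libraries, as was the case for 9.63% of all tested genes. For 27 of the 44, Nynrin CKO 3 and 4 both lay within the control range, as did 31.9% of all tested genes. At TMM-scaled levels, every Nynrin CKO library was above every control for 3 of the 44, against 9.52% of all tested genes. These were the same 3 that passed the test.

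As a measure of each library, the median over the 44 genes of the log2 ratio to the control mean was 1.68 in Nynrin CKO 1, 1.78 in Nynrin CKO 2, 0.0164 in Nynrin CKO 3 and 0.0158 in Nynrin CKO 4. The same median was 0.587, -0.244, -0.321 and -0.062 in controls 1 to 4. Control 1 thus stood above the other controls, and it was the highest control for 42 of the 44 genes, as it was for 23.5% of all tested genes. Over all tested genes, the median log2 ratio was 0.0315, 0.04, 0.0317 and -0.11 in controls 1 to 4. That all-gene median was 0.0392, 0.0419, -0.143 and -0.147 in Nynrin CKO 1 to 4. Summed, the 44 genes held 0.569%, 0.345%, 0.322% and 0.387% of all counts in controls 1 to 4. They held 1.14%, 1.13%, 0.335% and 0.346% in Nynrin CKO 1 to 4, so that the sums of Nynrin CKO 3 and 4 lay within the control range and those of Nynrin CKO 1 and 2 lay above it.

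**Figure D2:**
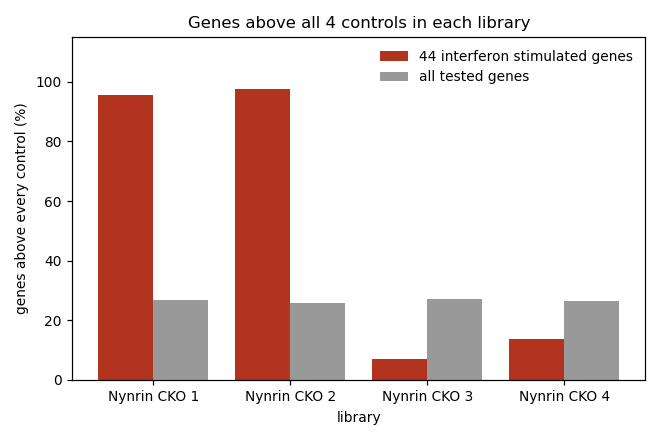
Percentage of genes whose CPM was above that of all 4 controls (vertical axis, from 0), for each Nynrin CKO library, with red bars for the 44 interferon stimulated genes and grey bars for all 27573 tested genes. The red bars stand for 42, 43, 3 and 6 genes of 44, and the grey bars lie between 25.9% and 27.1%.

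Promoter sequence was available for 33 of the 44 genes, as 250 bases before and 50 bases after the RefSeq start on GRCm38.p6. The letters GAAANNGAAA, the core shared by interferon-stimulated response elements, were searched on both strands, with overlapping matches counted. They were found in 15 of the 33 promoters (45.45%) and in 943 of all 27025 promoters (3.489%). The sequences below are those of Isg15 and Ifit3, which had large differences in Nynrin CKO 1 and 2, and of the 3 genes that passed the test, written 5′ to 3′ along the gene, with matches to the motif on either strand in capitals.
Isg15 (chr4:156200769-156201068, minus strand): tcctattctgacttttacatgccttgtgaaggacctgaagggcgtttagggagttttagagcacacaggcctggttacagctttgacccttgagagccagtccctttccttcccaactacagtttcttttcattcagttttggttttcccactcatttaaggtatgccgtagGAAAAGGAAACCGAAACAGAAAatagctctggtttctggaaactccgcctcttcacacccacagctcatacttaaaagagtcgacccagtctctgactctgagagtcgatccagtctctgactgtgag
Ifit3 (chr19:34583279-34583578, plus strand): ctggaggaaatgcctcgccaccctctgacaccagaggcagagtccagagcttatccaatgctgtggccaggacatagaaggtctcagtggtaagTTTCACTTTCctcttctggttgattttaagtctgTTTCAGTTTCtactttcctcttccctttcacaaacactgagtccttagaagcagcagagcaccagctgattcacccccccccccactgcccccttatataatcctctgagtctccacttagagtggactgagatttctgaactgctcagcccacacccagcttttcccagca
Phf11b (chr14:59341281-59341580, minus strand): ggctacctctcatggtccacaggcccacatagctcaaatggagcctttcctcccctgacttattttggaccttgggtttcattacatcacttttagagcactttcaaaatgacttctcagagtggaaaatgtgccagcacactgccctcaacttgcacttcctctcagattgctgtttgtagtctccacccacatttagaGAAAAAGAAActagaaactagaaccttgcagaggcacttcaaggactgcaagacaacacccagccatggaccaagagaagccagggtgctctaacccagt
Lgals3bp (chr11:118401910-118402209, minus strand): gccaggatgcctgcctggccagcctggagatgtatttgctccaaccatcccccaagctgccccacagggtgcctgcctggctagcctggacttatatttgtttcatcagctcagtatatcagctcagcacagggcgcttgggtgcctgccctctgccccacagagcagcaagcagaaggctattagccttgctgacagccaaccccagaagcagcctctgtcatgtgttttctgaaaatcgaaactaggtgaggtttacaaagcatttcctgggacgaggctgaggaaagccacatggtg
Ifi35 (chr11:101448162-101448461, plus strand): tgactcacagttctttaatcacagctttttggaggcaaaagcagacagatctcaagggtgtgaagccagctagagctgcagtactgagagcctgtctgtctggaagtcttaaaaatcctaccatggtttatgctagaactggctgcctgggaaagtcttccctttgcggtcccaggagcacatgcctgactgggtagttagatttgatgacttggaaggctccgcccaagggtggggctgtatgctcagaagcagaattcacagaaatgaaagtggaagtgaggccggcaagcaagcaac
Isg15 held 3 overlapping matches, with first bases at -78, -72 and -66 relative to the start. Ifit3 held 2, at -156 and -122, and Phf11b held 1, at -50, while the letters were not in the windows of Lgals3bp and Ifi35. A match describes the sequence and is not a measured binding site. Oas2, Mx1, Mx2, Usp18, Ifi27l2a, Dhx58, Zbp1, Rtp4, Parp9, Parp14 and Ly6e had no promoter entry.

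Phf11b, the first of the 3 genes that rose, belongs to a family of PHD finger proteins. It was at 25.1, 17.9, 20.6 and 24.4 CPM in controls 1 to 4 and at 69.4, 74.2, 36.9 and 38.3 CPM in Nynrin CKO 1 to 4. The 4 Nynrin CKO values lay above all controls, with those of Nynrin CKO 1 and 2 the highest (log2 fold change 1.31 ± 0.25 (SE), adjusted p = 0.0408). Lgals3bp encodes a secreted glycoprotein that binds galectins, and it had the highest level per transcript length of the 44 genes in the controls (336 CPM per kilobase of the longest transcript). It was at 816, 638, 733 and 944 CPM in controls 1 to 4 and at 1540, 1551, 1234 and 1221 CPM in Nynrin CKO 1 to 4. The groups did not overlap, and Nynrin CKO 3 and 4 lay closer to the controls than Nynrin CKO 1 and 2 did (log2 fold change 0.83 ± 0.16 (SE), adjusted p = 0.0411). Ifi35 encodes an interferon-induced leucine zipper protein. It was at 89.0, 65.9, 65.7 and 79.2 CPM in controls 1 to 4 and at 163, 178, 113 and 110.4 CPM in Nynrin CKO 1 to 4, again without overlap (log2 fold change 0.91 ± 0.19 (SE), adjusted p = 0.0442). The two-sided exact permutation test over the 70 assignments of 4 and 4 libraries gave p = 0.0286 for each of the 3. This is the smallest value it can give, and any gene without overlap gets it. Over all tested genes, 9.52% had every Nynrin CKO library above every control. For Lgals3bp and Ifi35 the separation depended on the TMM factors, 0.805 in Nynrin CKO 3 and 4 and 1.02 to 1.16 elsewhere. Of total counts, Lgals3bp held 50809 of 51723006 in Nynrin CKO 4 and 49411 of 50260720 in control 4. Ifi35 held 4594 of 51723006 in Nynrin CKO 4 and 3684 of 38101977 in control 1, so both overlapped on totals. Leaving out any 1 library other than control 4 ended all 3 calls, with adjusted p up to 0.183 for Phf11b, 0.235 for Lgals3bp and 0.208 for Ifi35. With Nynrin CKO 1 and 2 summed to 1 library and Nynrin CKO 3 and 4 to another, none of the 44 passed and 25 were higher at an unadjusted p under 0.05, against 4.77% of all genes tested in that setting.

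**Figure D3:**
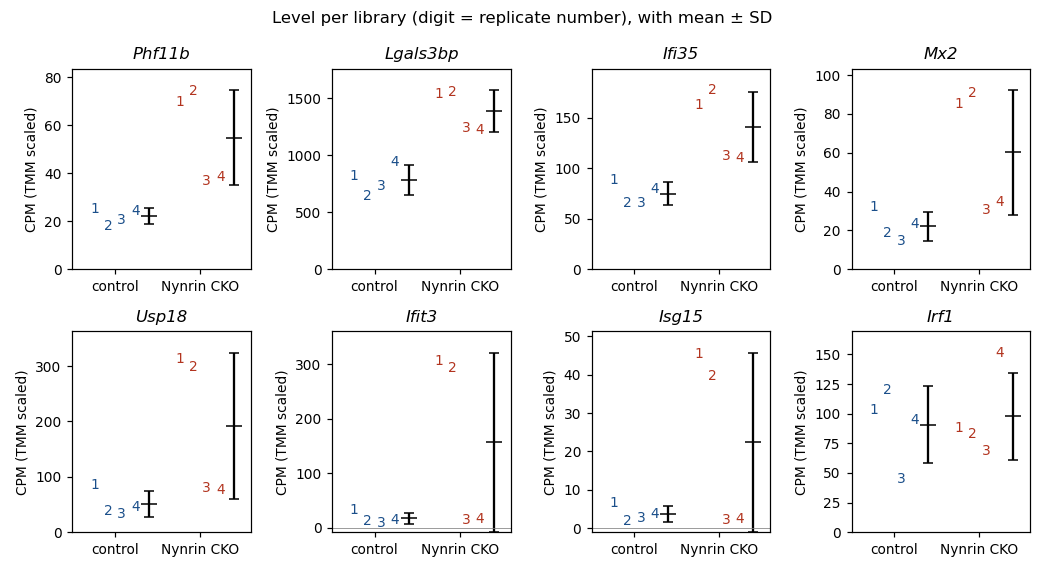
CPM (vertical axes) of the 3 genes that passed the test, of Mx2, Usp18, Ifit3 and Isg15 and of Irf1, in each library, where a digit is the replicate number, blue is control, red is Nynrin CKO and the black bar is the mean ± SD of 4 libraries. Digits 1 and 2 lie above 3 and 4 in the Nynrin CKO columns of all panels but Irf1, with Lgals3bp the narrowest of these gaps in proportion to its level, and in Irf1 the groups overlap.

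The IFIT genes encode RNA-binding proteins with tetratricopeptide repeats, which act against viral RNA. All 4 had positive estimates (median log2 fold change 2.76) and none passed the test, with 3 at an unadjusted p under 0.05, a count to be read here and in the groups below against the 13.2% of all tested genes that were higher at that p. Ifit3b was at 9.54, 2.71, 3.69 and 5.52 CPM in controls 1 to 4 and at 111, 100.8, 5.68 and 4.47 CPM in Nynrin CKO 1 to 4 (log2 fold change 3.37 ± 1.03 (SE), adjusted p = 0.105). Ifit3 was at 9.19 to 32.5 CPM in the controls and 306, 293, 13.2 and 16.1 CPM in Nynrin CKO 1 to 4 (log2 fold change 3.20 ± 1.02 (SE), adjusted p = 0.117). In both, Nynrin CKO 1 and 2 lay far above the other 6 libraries and Nynrin CKO 3 and 4 lay within the control range. The records of Ifit3 and Ifit3b were 98% identical over 1697 aligned bases, so that the division of counts between them is uncertain, and their summed counts gave a log2 fold change of 3.24. Ifit1, which binds viral RNA lacking host-type cap methylation, was at 27.3 to 79.7 CPM in the controls and 402, 406, 41.9 and 41.8 CPM in Nynrin CKO 1 to 4. Ifit2, which partners with it, was at 66.9 to 122 CPM in the controls and 216, 211, 69.3 and 69.8 CPM in Nynrin CKO 1 to 4. Nynrin CKO 3 and 4 lay within the control range for both.

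The OAS genes encode synthases of oligoadenylates that activate the ribonuclease RNase L, together with related proteins. All 6 had positive estimates (median 1.03) and none passed, with 3 at an unadjusted p under 0.05. Oas1a was at 132, 68.9, 68.9 and 78.5 CPM in controls 1 to 4 and at 288, 284, 119 and 119.8 CPM in Nynrin CKO 1 to 4 (log2 fold change 1.22 ± 0.36 (SE), adjusted p = 0.0944). Control 1 was at 132 CPM and exceeded Nynrin CKO 3 and 4, so that the groups overlapped. Oas1g, 97.53% identical to Oas1a over the aligned bases, was at 28.7 to 57.2 CPM in the controls and 118, 126, 34.2 and 35.6 CPM in Nynrin CKO 1 to 4. Oas2 was at 85.3 to 368 CPM in the controls and 491, 552, 159 and 164 CPM in Nynrin CKO 1 to 4, and Oas3 was at 46.2 to 119.5 CPM in the controls and 194, 205, 39.1 and 34.9 CPM in Nynrin CKO 1 to 4. In Oas3, Nynrin CKO 3 and 4 were below every control, whereas in Oas2 they lay within the control range. Oasl1, known in mouse to restrain Irf7 translation, was at 12.3 to 30.4 CPM in the controls and 33.5, 70.1, 14.8 and 16.3 CPM in Nynrin CKO 1 to 4. Oasl2, an OAS-like protein with ubiquitin-like domains, was at 107 to 262 CPM in the controls and 594, 545, 177 and 175 CPM in Nynrin CKO 1 to 4. In Oasl1, Nynrin CKO 1 lay just above control 1, the highest control, and Nynrin CKO 2 well above it.

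ISG15 is a ubiquitin-like protein attached to other proteins during the interferon response. Its conjugation genes had positive estimates in 4 of 4 (median 1.47) and none passed, with 2 at an unadjusted p under 0.05. Isg15 was at 6.59, 1.78, 2.75 and 3.72 CPM in controls 1 to 4 and at 45.3, 39.8, 2.27 and 2.31 CPM in Nynrin CKO 1 to 4 (log2 fold change 2.59 ± 0.97 (SE), adjusted p = 0.178). The levels of Nynrin CKO 1 and 2 exceeded all others, and Nynrin CKO 3 and 4 lay within the control range. Usp18 encodes the protease that removes ISG15 and also holds back receptor signalling. It was at 85.9, 37.9, 33.5 and 45.1 CPM in controls 1 to 4 and at 313, 299, 80.3 and 76.8 CPM in Nynrin CKO 1 to 4 (log2 fold change 1.93 ± 0.53 (SE), adjusted p = 0.0806). Nynrin CKO 3 and 4 were above controls 2 to 4 and below control 1. Herc6, the main mouse ISG15 ligase, was at 35.7 to 64.1 CPM in the controls and 138, 144, 36.7 and 31.0 CPM in Nynrin CKO 1 to 4. Trim25, a ubiquitin ligase that acts on the RNA sensor RIG-I, was at 51.8 to 74.7 CPM in the controls and 74.5, 81.7, 55.0 and 48.5 CPM in Nynrin CKO 1 to 4 and showed the next to smallest estimate of the 44 (0.12).

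Among the sensors of RNA and DNA, 6 of 6 had positive estimates (median 0.53) and none passed, with 2 at an unadjusted p under 0.05. Ddx58, which encodes the viral RNA sensor RIG-I, was at 58.2 to 89.4 CPM in the controls and 172, 167, 35.9 and 37.8 CPM in Nynrin CKO 1 to 4. Ifih1, which encodes the long RNA sensor MDA5, was at 62.9 to 127 CPM in the controls and 182, 175, 54.1 and 53.5 CPM in Nynrin CKO 1 to 4. Both were below every control in Nynrin CKO 3 and 4 and above every control in Nynrin CKO 1 and 2. Dhx58 encodes LGP2, a regulator of these sensors, and was at 29.2 to 66.6 CPM in the controls and 142, 153, 44.8 and 48.0 CPM in Nynrin CKO 1 to 4. Zbp1, a sensor of Z-form nucleic acid that can start necroptosis, was at 7.78 to 29.2 CPM in the controls and 112, 131, 10.2 and 12.5 CPM in Nynrin CKO 1 to 4. Both lay within the control range in Nynrin CKO 3 and 4. Eif2ak2, the kinase PKR that stops translation on double-stranded RNA, was at 47.3 to 79.9 CPM in the controls and 109, 107, 57.7 and 51.2 CPM in Nynrin CKO 1 to 4. Adar, the adenosine deaminase that edits such RNA, was at 110.2 to 229.9 CPM in the controls and 254, 252, 156 and 155 CPM in Nynrin CKO 1 to 4, with the smallest estimate of this group (0.31).

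Of the 10 other antiviral effectors, 10 had positive estimates (median 1.31), none passed and 7 were at an unadjusted p under 0.05. Mx2 encodes a dynamin-like GTPase that blocks viral particles. Mx2 was at 32.0, 18.4, 14.6 and 23.2 CPM in controls 1 to 4 and at 85.0, 90.7, 30.4 and 34.6 CPM in Nynrin CKO 1 to 4 (log2 fold change 1.45 ± 0.40 (SE), adjusted p = 0.0802). Control 1 lay between Nynrin CKO 3 and 4, and the other controls were below all 4 Nynrin CKO libraries. Mx1, its relative, was at 4.51 to 9.34 CPM in the controls and 29.1, 40.3, 4.43 and 4.45 CPM in Nynrin CKO 1 to 4. Bst2 encodes tetherin, which holds budding virions on the cell, and was the third highest of the 44 in level per transcript length in the controls (65.5 CPM per kilobase). It was at 68.9, 39.7, 43.96 and 54.9 CPM in controls 1 to 4 and at 150.3, 174, 67.5 and 63.0 CPM in Nynrin CKO 1 to 4 (log2 fold change 1.13 ± 0.35 (SE), adjusted p = 0.105). Isg20 encodes an exonuclease acting on single-stranded RNA. It was at 47.9, 34.4, 26.9 and 38.9 CPM in controls 1 to 4 and at 181, 183, 42.8 and 41.4 CPM in Nynrin CKO 1 to 4 (log2 fold change 1.598 ± 0.51 (SE), adjusted p = 0.115). In both, Nynrin CKO 3 and 4 did not exceed control 1. Rtp4 encodes a chaperone of membrane receptors that also restrains viruses. It was at 78.5, 33.8, 31.5 and 34.9 CPM in controls 1 to 4 and at 202, 181, 64.0 and 57.0 CPM in Nynrin CKO 1 to 4 (log2 fold change 1.497 ± 0.48 (SE), adjusted p = 0.116). Ly6e, a glycolipid-anchored surface protein that limits coronavirus entry, was next to highest in level per length (142 CPM per kilobase). Ly6e was at 422, 239.7, 234 and 402 CPM in controls 1 to 4 and at 984, 937, 363 and 426 CPM in Nynrin CKO 1 to 4 (log2 fold change 1.06 ± 0.36 (SE), adjusted p = 0.142). Nynrin CKO 3 of Ly6e lay within the control range and Nynrin CKO 4 just above it. In the other members Nynrin CKO 1 and 2 were again above the controls. Rsad2, which encodes viperin, was at 11.98 to 50.2 CPM in the controls and 72.2, 138, 36.6 and 34.9 CPM in Nynrin CKO 1 to 4, and Cmpk2, the nucleotide kinase encoded beside it, at 36.1 to 65.8 CPM in the controls and 176, 172, 35.6 and 36.6 CPM in Nynrin CKO 1 to 4. Trim30a, a negative regulator of Toll-like receptor signalling in mouse, was at 144 to 278 CPM in the controls and 494, 455, 209 and 209 CPM in Nynrin CKO 1 to 4. Samd9l, a restrictor of translation, was at 44.8 to 70.1 CPM in the controls and 101.2, 109.5, 20.4 and 19.4 CPM in Nynrin CKO 1 to 4, with Nynrin CKO 3 and 4 below every control.

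The transcription factors of the response were in the list with 4 genes, all with positive estimates (median 0.64), none of which passed and 1 of which was at an unadjusted p under 0.05. Irf7, the factor that amplifies interferon production, was at 20.6 to 80.3 CPM in the controls and 262, 258, 34.2 and 32.8 CPM in Nynrin CKO 1 to 4. Nynrin CKO 1 and 2 were above every other library, and Nynrin CKO 3 and 4 lay within the control range, between controls 1 and 4. Counts of the opposite-strand Phrf1 came to 82.51% of those of Irf7, and whether counting used strand is not given. Irf9, the DNA-binding part of ISGF3, was at 85.5 to 167 CPM in the controls and 276, 195, 105 and 111 CPM in Nynrin CKO 1 to 4. It lies on chromosome 14, 243979 bases from the targeted gene Nynrin, and Phf11b and Phf11d lie on that chromosome too. Overlapping records came to 18.43% of the counts of Irf9 (Rnf31, same strand) and 19.97% of those of Irf1 (Gm17334, opposite strand). Stat2, the partner of Irf9 in ISGF3, was at 23.5 to 40.0 CPM in the controls and 80.1, 76.4, 17.5 and 17.9 CPM in Nynrin CKO 1 to 4, with Nynrin CKO 3 and 4 below every control. Irf1, which responds to interferon gamma as well, was the exception of the list. Irf1 was at 103, 120.3, 44.8 and 94.7 CPM in controls 1 to 4 and at 87.7, 82.8, 68.9 and 151 CPM in Nynrin CKO 1 to 4 (log2 fold change 0.10 ± 0.32 (SE), adjusted p = 0.914). Its highest library was Nynrin CKO 4, and Nynrin CKO 1 and 2 lay within the control range. The scaling by total counts placed Irf1 at -0.18 and Trim25 at -0.11, and the other 42 genes kept a positive estimate there.

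Parp9 and Dtx3l encode an ADP-ribosylation complex, and Parp14 encodes another enzyme of that kind. All 3 had positive estimates (median 0.76), none passed and 1 was at an unadjusted p under 0.05. Parp9 was at 43.9 to 77.8 CPM in the controls and 148, 151, 43.4 and 47.0 CPM in Nynrin CKO 1 to 4. Dtx3l was at 47.8 to 64.3 CPM in the controls and 109, 94.7, 36.6 and 41.2 CPM in Nynrin CKO 1 to 4. Parp14 was at 24.6 to 35.6 CPM in the controls and 76.1, 73.9, 27.8 and 27.4 CPM in Nynrin CKO 1 to 4. Parp9 and Dtx3l overlap on opposite strands, so counts of one may include reads of the other. The 7 further genes have other roles, and 3 of them are those that passed. Xaf1 encodes a promoter of apoptosis that opposes XIAP. It was at 90.7, 36.9, 33.9 and 49.7 CPM in controls 1 to 4 and at 249.9, 240.2, 86.3 and 84.1 CPM in Nynrin CKO 1 to 4 (log2 fold change 1.65 ± 0.45 (SE), adjusted p = 0.0812). Ifi27l2a encodes a small mitochondrial membrane protein. It was at 20.7, 5.00, 5.52 and 5.29 CPM in controls 1 to 4 and at 41.3, 53.0, 17.0 and 18.1 CPM in Nynrin CKO 1 to 4 (log2 fold change 1.82 ± 0.56 (SE), adjusted p = 0.108). In both, control 1 exceeded Nynrin CKO 3 and 4, and the other 3 controls were below them. Ifi44 was at 126 to 404 CPM in the controls and 1152, 1094, 258 and 261 CPM in Nynrin CKO 1 to 4, and Phf11d, 90.37% identical to Phf11b over the aligned bases, was at 8.58 to 32.1 CPM in the controls and 91.8, 89.7, 13.3 and 15.1 CPM in Nynrin CKO 1 to 4. For both, Nynrin CKO 3 and 4 lay within the control range. With Phf11b and Phf11d counted as 1 record, the log2 fold change was 1.47 and the adjusted p 0.0953, no longer past the threshold.

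Because the libraries fell into a set with more receptor counts and a set with fewer, the comparison was also made within each set, in a single model with 1 mean per group and set. The set with more held controls 1 to 3 and Nynrin CKO 1 and 2. In that set 32 of the 44 genes rose, against 7.86% of all tested genes called higher, 43 of 44 had positive estimates and the median log2 fold change was 1.67. Nynrin CKO 1 and 2 are the pair with high levels of the 44, so these calls and this median rest on that pair. Its libraries were closer to each other than any 2 controls were, and the labels do not say whether they came from separate mice. The 4 IFIT genes rose (median 3.59), with Ifit3b at 4.32 (adjusted p = 0.00939) and Ifit3 at 4.07 (adjusted p = 0.0193). Of the 10 other antiviral effectors 9 rose, of the 6 sensors 4, of the 6 OAS genes 3, of the 4 ISG15 conjugation genes 3, of the 4 transcription factors 2 and of the 3 PARP and DTX3L genes 3. Isg15 reached 3.52 (adjusted p = 0.00669), and Irf7 stood at 2.67 without passing (adjusted p = 0.0854).

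The set with few receptor counts held control 4 and Nynrin CKO 3 and 4, so the control side was 1 library, assumed to vary like the others. In that set none of the 44 genes was called higher by edgeR, against 6.70% of all tested genes, and at an unadjusted p under 0.05 there were 3 higher and 3 lower, against 16.1% and 13.6% of all tested genes. The median was 0.07, with 27 positive and 17 negative estimates. The 2 genes called lower were Ddx58 (-0.93, adjusted p = 0.0312) and Samd9l (-1.17, adjusted p = 0.0144), against 5.98% of all tested genes called lower, so that their share was no larger than the background. The difference between the sets was itself tested, a test that was chosen after the values were seen and rests on control 4 alone on 1 side. The estimate was smaller in the set with few receptor counts for 43 of the 44 genes (median difference -1.51), and 15 passed, against 3.61% of all tested genes. Among these were Ifit3b (-4.44), Isg15 (-4.22) and Ddx58 (-2.23), all 3 of the PARP and DTX3L genes and 2 of the 3 genes called over all libraries, Phf11b and Lgals3bp. The set is defined by the libraries and not by the labels, and which library property goes with the difference was not tested. Against all 4 controls, and with Nynrin CKO 1 and 2 left out, the median of the 44 was -0.13 beside -0.52 for all genes tested, Phf11b and Ifi35 rose, and Ddx58, Dtx3l, Ifih1, Samd9l and Stat2 fell. These 2 and 5 of the 44 stand beside 6.40% of all genes tested called higher and 9.26% called lower, so neither count was far from the background. With Nynrin CKO 3 and 4 left out instead, the median was 1.66 beside -0.04 for all genes tested, and 26 of the 44 rose, against 0.399% of all genes tested. Both left-out settings were chosen after the values of the 44 genes were seen. Each kept the Nynrin CKO pair with low or with high levels of the 44, so its median and calls largely follow from that choice.

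**Figure D4:**
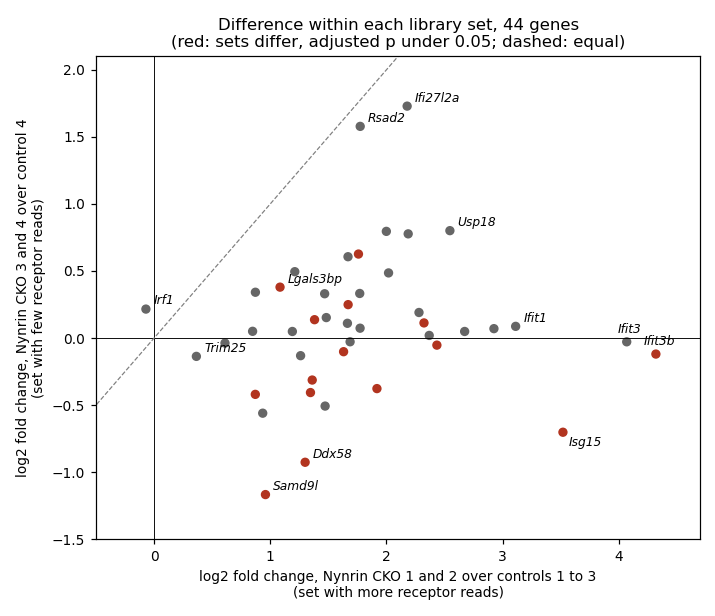
Log2 fold change of Nynrin CKO over control for each of the 44 genes, within the set with more receptor counts (horizontal axis: Nynrin CKO 1 and 2 over controls 1 to 3) and within the set with few (vertical axis: Nynrin CKO 3 and 4 over control 4). Points are red where the 2 sets differ at an adjusted p under 0.05 (15 genes), the dashed line marks equal values, and 43 of the 44 points lie below it.

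Upstream of these genes, the interferon ligands were near or at the limit of detection. Of 20 type I and type III interferon records, 3 had enough counts to be tested and none passed by edgeR, either adjusted or at an unadjusted p under 0.05. No ligand exceeded 35 counts in any library, and Ifna12 had 0 in all 8, which allows up to 3 counts in each, a limit that covers counting error only. Ifnb1, the interferon beta gene, had 8, 2, 20 and 0 counts in controls 1 to 4 and 0, 2, 4 and 0 in Nynrin CKO 1 to 4. The ligands summed to 1.93, 3.02, 4.23 and 0.554 CPM in controls 1 to 4 and to 2.66, 2.44, 0.859 and 0.553 CPM in Nynrin CKO 1 to 4. The 5 libraries with more receptor counts had the 5 highest sums, and Nynrin CKO 1 and 2 lay within the control range. Ifnk and Ifna2 had the smallest p of the 3 tested (edgeR adjusted p = 0.939 and 0.958).

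Of the 10 genes listed for the receptors and their signalling, 9 could be tested, 1 fell and none rose, against 2.22% of all tested genes called higher and 0.588% called lower, and 7 were at an unadjusted p under 0.05, against 18.9%. The gene that fell was Tyk2, a kinase of the receptor. Tyk2 was at 57.2, 66.9, 55.1 and 63.4 CPM in controls 1 to 4 and at 43.2, 46.0, 41.4 and 44.4 CPM in Nynrin CKO 1 to 4, with all Nynrin CKO libraries below all controls (log2 fold change -0.47 ± 0.10 (SE), adjusted p = 0.0456). Jak1, the partner kinase, was at 336 to 381 CPM in the controls and 334, 331, 229 and 226 CPM in Nynrin CKO 1 to 4. Ifnar1 was at 98.4 to 124 CPM in the controls and 136, 129, 82.8 and 81.1 CPM in Nynrin CKO 1 to 4, and Ifnar2 at 55.8 to 62.0 CPM in the controls and 64.5, 58.9, 96.9 and 97.4 CPM in Nynrin CKO 1 to 4, so that in Nynrin CKO 3 and 4 the first chain was below and the second above every control.

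**Figure D5:**
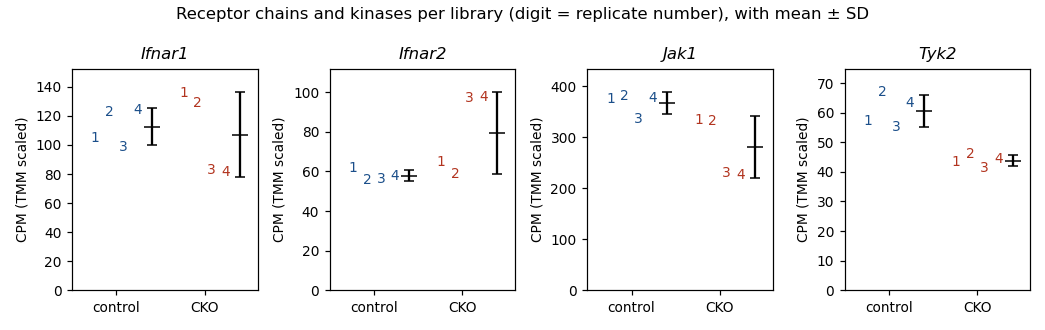
CPM (vertical axes, from 0) of both receptor chains and of the kinases Jak1 and Tyk2 in each library, where a digit is the replicate number, blue is control, red is Nynrin CKO and the bar is the mean ± SD of 4 libraries. Tyk2 is below every control in all 4 Nynrin CKO libraries, and the 2 receptor chains lie on opposite sides of the controls in Nynrin CKO 3 and 4 (82.8 and 81.1 CPM for Ifnar1, 96.9 and 97.4 CPM for Ifnar2).

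Of 18 genes listed for the induction pathway, which sense nucleic acid and start interferon transcription, 16 were found by symbol among the gene records. None of the 16 passed by edgeR, and 5 were at an unadjusted p under 0.05, against 18.9% of all tested genes. Unc93b1, the carrier of nucleic acid sensing Toll-like receptors, was at 65.2 to 84.0 CPM in the controls and 94.9, 104, 139 and 133 CPM in Nynrin CKO 1 to 4 (adjusted p = 0.0532). Irf8, a factor of myeloid cells that also drives interferon, was at 4.44 to 10.3 CPM in the controls and 10.9, 10.5, 79.0 and 86.0 CPM in Nynrin CKO 1 to 4 (adjusted p = 0.0877). The highest values of Irf8 were in Nynrin CKO 3 and 4. Of 15 genes that brake the pathway, 2 rose and none fell, beside 2.22% and 0.588% of all tested genes. Rnaset2a, a lysosomal ribonuclease, was at 97.8 to 151 CPM in the controls and 199, 199, 261 and 237 CPM in Nynrin CKO 1 to 4 (log2 fold change 0.90 ± 0.16 (SE), adjusted p = 0.0394), and Pias1, an inhibitor of the pathway's transcription factors, at 56.8 to 73.0 CPM in the controls and 87.4, 88.1, 90.9 and 95.1 CPM in Nynrin CKO 1 to 4 (log2 fold change 0.46 ± 0.10 (SE), adjusted p = 0.0497). In both, all 4 Nynrin CKO libraries were above all controls at TMM-scaled levels, as was the case for 9.52% of all tested genes. For Pias1 the separation depended on the TMM factors, 0.805 in Nynrin CKO 3 and 4 and 1.02 to 1.16 elsewhere. On total counts its groups overlapped.

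Markers of other cells were also counted in these libraries, and their calls stand beside the 2.22% of all tested genes called higher. Summed markers of plasmacytoid dendritic cells, the main interferon producers, came to 131 to 149 CPM in the controls and to 179, 181, 280.1 and 296 CPM in Nynrin CKO 1 to 4, with all 10 detected and 1 called higher (Ly6d). Summed markers of monocytes and macrophages were at 67.0 to 79.7 CPM in the controls and at 96.9, 96.7, 297 and 284 CPM in Nynrin CKO 1 to 4, with 2 of 14 called higher. The 14 neutrophil markers summed to 325 to 503 CPM in the controls and to 624, 678, 4281 and 4314 CPM in Nynrin CKO 1 to 4, with 1 called higher. All 3 sums were highest in Nynrin CKO 3 and 4, the libraries in which the median of the 44 interferon stimulated genes lay near the control mean. B cell markers summed to 44.7 to 57.8 CPM in the controls and to 199, 109, 189 and 128 CPM in Nynrin CKO 1 to 4, T and NK cell markers to 85.8 to 127.5 and to 196, 189, 381 and 381 CPM, with 1 of 12 called higher, and endothelial markers to 238 to 268 and to 226, 239, 427 and 428 CPM. Erythroid markers summed to 1124 to 1423 CPM in the controls and to 2079 to 2472 CPM in Nynrin CKO, with 3 of 11 called higher, and the HSC markers to 4258 to 4983 and to 4711 to 5755 CPM. No B cell, endothelial or HSC marker was called higher by edgeR. At an unadjusted p under 0.05 in either direction there were 4 of 11, 2 of 10 and 6 of 14, against 18.9% of all tested genes. At that p there were 8 of 14 neutrophil and 9 of 14 monocyte and macrophage markers. There were also 4 of 9 tested plasmacytoid dendritic cell, 3 of 12 T and NK cell and 4 of 11 erythroid markers. No marker of any list was at 0 in all libraries. The part of these cells in the levels of the interferon stimulated genes was not tested.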

How the data were processed

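RNA-seq counts per gene were deposited by the authors as whole numbers, 1 column per library, with no normalization, per the file headers. The submitters' processing notes name mm10 as a build, while aligner, counter and use of strand were not given in the sources used here. Both members and the gene lists were chosen with earlier results of these data known. The 4 control and 4 Nynrin CKO libraries were compared with edgeR 4.0.16 in R 4.3.3 (filterByExpr, TMM factors, robust quasi-likelihood F-test, Benjamini-Hochberg adjustment over all tested genes, threshold 0.05), with no covariate, and the procedure was tested on simulated data. A single gene was also tested by exact permutation of log2(CPM + 1). DESeq2 1.42.0, limma 3.58.1, other scalings and filters, library sets and libraries left out were alternatives. Library sets were divided at 300 receptor CPM. Precision is set by 36942835 to 56437299 counts per library and by 4 libraries per group. All members are named by role. Values in every library are given for members that passed, for those with the smallest p up to 12 in all and for the 3 highest per transcript length (GENCODE M21), and in other lists the genes that passed or, where none did, the 2 with the smallest p. Isg15, Irf1, Ifit3, both receptor chains and Jak1 were added to these after their values were seen. Promoters are from RefSeq.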

Additional observations from a re-analysis of the deposited data

Results flagged for a closer look

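Within the 4 controls, control 1 lay far above the other 3 for 6 of the 44 interferon stimulated genes, by the gap to its nearest neighbour over the range of the group. Its levels were 119.5 CPM for Oas3, 30.4 CPM for Oasl1, 20.7 CPM for Ifi27l2a, 78.5 CPM for Rtp4, 70.1 CPM for Samd9l and 64.1 CPM for Herc6. Chance gives such a gap in about 1 in 20 groups, 88 groups were examined, and no other library stood apart in this way.

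The difference between Nynrin CKO and control was itself different between the 2 library sets. It was smaller in the set with few receptor counts for 15 of the 44 genes by the edgeR test of the difference, against 3.61% of all tested genes, and larger for none of the 44. This test was chosen after the values were seen, and the set with few holds 1 control library.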

How the results depend on the processing

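The medians of the 44 genes stayed positive under all alternatives but 1, and the number of calls did not. With all 8 libraries 3 of the 44 were called higher, and 611 and 162 genes were called higher and lower over all genes. Scaling gave 0, 13 and 22 with RLE size factors, 225 and 251 over all genes with upper-quartile factors, and 0, 59 and 318 with total counts, where the median of all genes moved from -0.09 to -0.34. Without a filter on low counts the numbers were 1, 33 and 16, and with at least 1 CPM in 4 libraries 475 genes were called lower. DESeq2 gave 18, 1586 and 883, and limma-voom 10, 1629 and 496. The library set as a term gave 10, 1221 and 408, and the Xist class 0, 4 and 6. Removing mitochondrial, ribosomal and haemoglobin genes gave 0, 25 and 79. Summing the Nynrin CKO pairs gave 0, 0 and 0, with 3022 genes at an unadjusted p under 0.05 by edgeR.

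Within the set with more receptor counts 32 of the 44, 2168 and 1025 genes were called, with a median of 1.67. Within the set with few, 0 of the 44 were higher and 2 lower, 1847 and 1649 genes were called, the median was 0.0718, and Ifit3b stood at -0.12 and Ly6e at -0.0278. Without Nynrin CKO 1 and 2, 5 of the 44 were lower, 2055 and 2970 genes were called, the median was -0.13 and Ifit3b was at -0.12. Without Nynrin CKO 3 and 4, 26 of the 44, 132 and 40 genes were called, with a median of 1.66. These last settings were chosen after seeing the data. Leaving out 1 library at a time gave 0 to 3 calls among the 44, 1 to 1129 higher and 0 to 243 lower over all genes and medians of 0.856 to 1.39. The cause of these changes was not tested.

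With the replicate number as a replicate block 0 of the 44 and 0 genes in either direction were called, with 5144 genes at an unadjusted p under 0.05 by edgeR, and the median was 0.97. The deviations of same-numbered libraries correlated at 0.203, 0.214, -0.262 and 0.386. Controls 1, 2 and 4 correlated best with the same-numbered Nynrin CKO library, by small margins (next 0.188 for control 2 and 0.376 for control 4). Control 3 correlated best with Nynrin CKO 1 (0.289). The signs followed the library sets, with controls 1 to 3 positive with Nynrin CKO 1 and 2 and control 4 positive with Nynrin CKO 3 and 4. The check therefore cannot tell whether the numbers pair the libraries. With levels adjusted for transcript length and base composition, the median was 0.94. Over single genes, 254 of 352 recomputed values kept their direction and side of the threshold, 56 lost a call, 39 gained one and 3 changed sign.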

Other observations

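Ly6a, the gene of the stem cell surface marker Sca-1, is also known to respond to interferon and was named here after its values were seen. It was at 106, 116, 59.7 and 128 CPM in controls 1 to 4 and at 229.8, 203, 87.1 and 134.6 CPM in Nynrin CKO 1 to 4. Its 2 highest libraries were those in which the 44 interferon stimulated genes were highest, and Nynrin CKO 4 also lay above every control.

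The 44 genes lie on 15 chromosomes, with 6 each on chromosomes 5, 11 and 16 and 4, the IFIT genes, on chromosome 19.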
